A study of Mus musculus with 8 samples.

Results

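The 10 genes described here encode transporters that carry amino acids and small peptides across the membranes of intestinal epithelial cells. They were chosen by name, with earlier results of these data known. Slc15a1, Slc6a19, Slc6a20a, Slc3a1 and Slc7a9 serve the apical membrane of villus enterocytes, Slc3a2, Slc7a7, Slc7a8 and Slc43a2 serve the basolateral membrane, and Slc1a5 is known from proliferating cells. Each matched 1 of the 54532 rows of the count table, and all 10 passed the filter on low counts, which 9855 genes passed in all. Libraries of epithelial cells from the intestine came from 4 WT and 4 Rank-knockout females at lactation day 5. Rank (gene symbol Tnfrsf11a) encodes a receptor that activates NF-κB. Per the study's methods, the floxed Rank allele was deleted with a Cre under the Villin1 promoter, which is active in the intestinal epithelium. The mice were C57BL/6J, the controls were female littermates, and all dams were mated with wild-type males. For age the study states only a broad range over all its mice, the segment of intestine is not given in the sources used here, and the labels do not give the alleles that the WT animals carried.

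Protein in the gut lumen is digested to free amino acids and to peptides of a few residues. The enterocyte takes both up through the brush border, drawing on sodium and proton gradients or on the exchange of one amino acid for another, and releases amino acids to the blood through carriers of the basolateral membrane. Some carriers work as pairs, in which a heavy chain of the SLC3 family brings a light chain of the SLC7 family to the membrane. Villus enterocytes are the absorbing cells, whereas dividing cells of the crypt import amino acids mainly for their own growth.

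All 9 transporters of the villus membranes were lower in Rank-knockout than in WT libraries, and Slc1a5 was higher. The falls ran from 1.53-fold for Slc7a7 to 2.6-fold for Slc6a20a, and the rise of Slc1a5 was 1.76-fold. Of all tested genes, 14.6% were called lower and 15.8% higher (edgeR quasi-likelihood test, adjusted p under 0.05). The median log2 fold change was -0.91 over the 10 members and 0.02 over all tested genes. In 9 of the 10 members no WT library overlapped a Rank-knockout library, against 28.8% of all tested genes. The exception was Slc7a8. In bulk samples such as these, fewer cells of a type and less RNA per cell cannot be told apart.

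Values are CPM (tag counts relative to the size of the library, after TMM scaling). The reads are tags of the 3′ end, about 1 for each transcript, so levels of different genes can be set side by side without correction for length. Total counts per library ran from 1530781 to 4335653, and WT replicates 1, 3 and 4 were shallower than any Rank-knockout library. With every library thinned to 1530781 counts, 9 members were still called lower and 1 higher. The members had from 40 to 6506 counts in a library, and Slc1a5 was the one with the fewest.

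The targeted gene was examined before the members. Tnfrsf11a stood at 77.4, 49.7, 41.7 and 73.9 CPM in WT replicates 1 to 4, against 27.2, 42.0, 35.5 and 47.2 CPM in the Rank-knockout replicates. Tags were present in every library and the genotypes overlapped. Its log2 fold change was -0.67 (SE 0.22 and edgeR adjusted p of 0.032). Tags from the 3′ end check the labels only where that end was deleted, which is not stated in the sources used here. The study itself reports that RANK expression in the intestine was lost in its mice with this deletion.

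**Figure D1:**
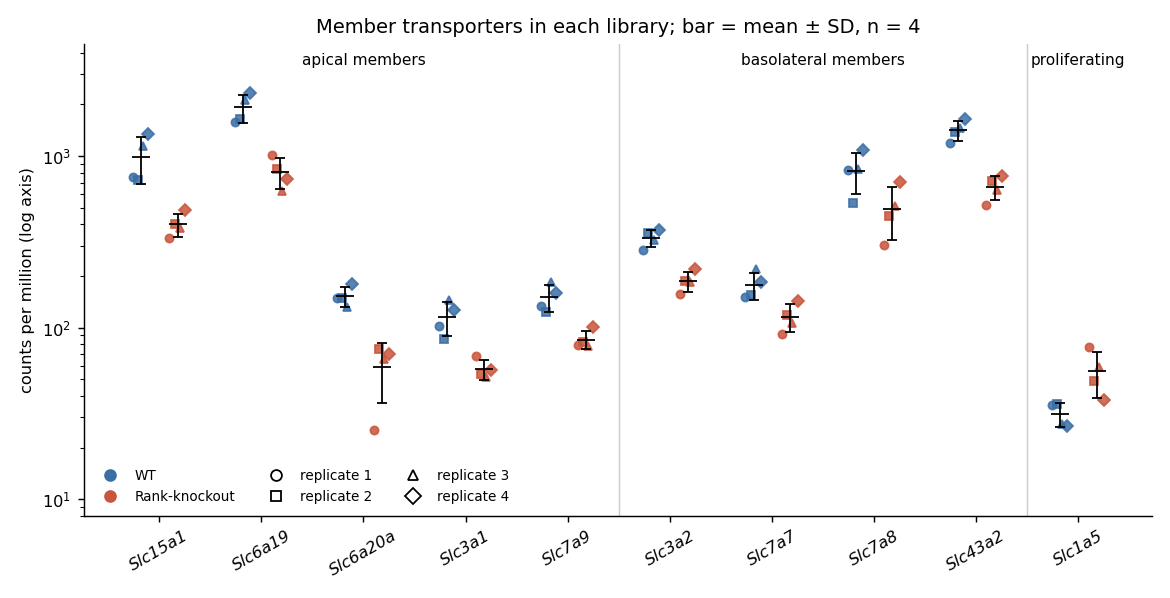
Level of each member in each library, in CPM on a log axis, with WT in blue and Rank-knockout in red. The symbol shape gives the replicate number, and the bar gives the mean and SD of 4 libraries. The genotypes are apart for every member except Slc7a8, where the highest Rank-knockout library (707 CPM) lies above the lowest WT library (534 CPM).

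Among the apical members, Slc15a1 (ENSMUSG00000025557, chromosome 14, 121459621 to 121505252, minus strand; all positions are GRCm38 bounds of protein-coding genes) encodes PEPT1, which moves small peptides inward together with protons. It stood at 753, 727, 1140 and 1349 CPM in WT replicates 1 to 4 and at 332, 401, 381 and 482 CPM in Rank-knockout replicates 1 to 4. The WT libraries fell into a lower and a higher pair, and even the lower pair was well above the highest Rank-knockout library. The mean was 992 ± 304 CPM in WT, against 399 ± 62.4 CPM in Rank-knockout (SD, n = 4 each). Slc15a1 fell by 1.31 on the log2 scale (SE 0.20 and edgeR adjusted p of 4.3e-04).

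Slc6a19 (ENSMUSG00000021565, chromosome 13, 73679745 to 73704865, minus strand) encodes B0AT1, the main sodium-driven carrier of neutral amino acids in the brush border. It was the most abundant member by mean level in both genotypes. Its levels were 1588, 1649, 2127 and 2324 CPM in WT, against 1012, 843, 630 and 736 CPM in Rank-knockout. The highest Rank-knockout library, replicate 1, was still far below the lowest WT library. The log2 fold change was -1.25 (SE 0.18 and edgeR adjusted p of 2.6e-04).

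Slc6a20a (ENSMUSG00000036814, chromosome 9, 123634770 to 123678885, minus strand) encodes a sodium-driven carrier of proline and other imino acids. It measured 149, 149, 131 and 178 CPM in WT and 25.3, 75.4, 65.2 and 70.1 CPM in Rank-knockout. The genotypes did not overlap, and Rank-knockout replicate 1 lay well below the other Rank-knockout libraries. The log2 fold change of -1.38 (SE 0.27 and edgeR adjusted p of 3.3e-03) was the largest of the members and ranked 76 among the falls of all 9855 tested genes. Its close copy Slc6a20b lies beside it on the chromosome and had 45 counts over all WT and 13 over all Rank-knockout libraries, too few to be tested. How reads that match both copies were divided is uncertain.

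Slc3a1 and Slc7a9 encode the heavy and the light chain of the apical exchanger that takes in cystine and cationic amino acids in return for neutral ones. Slc3a1 (ENSMUSG00000024131, chromosome 17, 85028376 to 85064236, plus strand) stood at 103, 85.7, 144 and 127 CPM in WT and 68.4, 53.7, 51.3 and 56.4 CPM in Rank-knockout. It fell by 0.98 on the log2 scale (SE 0.18 and edgeR adjusted p of 9.5e-04). The WT libraries all lay above the Rank-knockout libraries, of which replicate 1 was the highest.

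Slc7a9 (ENSMUSG00000030492, chromosome 7, 35448796 to 35466036, plus strand) stood at 134, 124, 184 and 160 CPM in WT and 79.6, 82.9, 78.2 and 100 CPM in Rank-knockout. The log2 fold change was -0.81 (SE 0.16 and edgeR adjusted p of 1.5e-03), and the genotypes did not overlap. The ratio of Slc3a1 to Slc7a9 tags, which does not depend on how libraries are scaled, was 0.759 ± 0.0459 in WT against 0.681 ± 0.126 in Rank-knockout (SD, n = 4 each). The ratio overlapped between the genotypes, and both the highest value (0.859, replicate 1) and the lowest value (0.563, replicate 4) were Rank-knockout libraries.

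Among the basolateral members, Slc3a2 (ENSMUSG00000010095, chromosome 19, 8706882 to 8723369, minus strand) encodes the heavy chain that the exchangers of this membrane share. It is made by many cell types and also carries the light chain Slc7a5 of dividing cells. Its levels were 284, 358, 326 and 370 CPM in WT, against 157, 186, 184 and 219 CPM in Rank-knockout, with no overlap. It fell by 0.84 on the log2 scale (SE 0.14 and edgeR adjusted p of 7.5e-04).

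Slc7a7 (ENSMUSG00000000958, chromosome 14, 54369442 to 54417780, minus strand) encodes the light chain that lets cationic amino acids leave the cell in exchange for neutral ones and sodium. It stood at 151, 155, 219 and 185 CPM in WT, against 92.3, 119, 107 and 143 CPM in Rank-knockout. The highest Rank-knockout library came close to the lowest WT library. The log2 fold change of -0.62 (SE 0.17 and edgeR adjusted p of 0.011) was the smallest of the members. With library totals in place of TMM scaling it was -0.42 with an adjusted p of 0.054.

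Slc7a8 (ENSMUSG00000022180, chromosome 14, 54722209 to 54781946, minus strand) encodes a light chain that exchanges neutral amino acids. It stood at 830, 534, 840 and 1080 CPM in WT, against 304, 447, 512 and 707 CPM in Rank-knockout. These libraries overlapped between the genotypes. The log2 fold change was -0.74 (SE 0.25 and edgeR adjusted p of 0.040), and this call was the least secure of the members. It was lost in 9 of 18 alternative settings, including 6 of the 8 fits that left out a single library (all but those without WT replicate 2 or Rank-knockout replicate 4). Without Rank-knockout replicate 1 it was -0.56 (adjusted p = 0.088), and without WT replicate 4 it was -0.60 (adjusted p = 0.115).

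Slc43a2 (ENSMUSG00000038178, chromosome 11, 75531694 to 75577575, plus strand) encodes a carrier that lets branched-chain amino acids, phenylalanine and methionine out of the cell without exchange. By mean level it ranked next to Slc6a19 in both genotypes. In Rank-knockout replicates 3 and 4 it stood slightly above Slc6a19 (638 against 630 CPM and 767 against 736 CPM). Its levels were 1193, 1376, 1457 and 1643 CPM in WT, against 521, 718, 638 and 767 CPM in Rank-knockout. The genotypes were far apart, and the log2 fold change was -1.10 (SE 0.16 and edgeR adjusted p of 2.8e-04).

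Slc1a5 (ENSMUSG00000001918, chromosome 7, 16781340 to 16798274, plus strand) encodes ASCT2, a sodium-dependent exchanger of glutamine and other neutral amino acids. It was the least abundant member by mean level in both genotypes and the single one that rose. Its levels were 35.6, 36.0, 27.3 and 26.6 CPM in WT and 77.1, 49.2, 58.9 and 37.7 CPM in Rank-knockout. No libraries overlapped, but WT replicate 2 and Rank-knockout replicate 4 were close. The mean was 31.4 ± 5.11 CPM in WT against 55.7 ± 16.7 CPM in Rank-knockout (SD, n = 4 each), a log2 fold change of 0.82 (SE 0.22 and edgeR adjusted p of 0.010). The call held without any single library. Without WT replicate 4 and Rank-knockout replicate 1 together, an alternative chosen after values were seen, it was 0.54 with an adjusted p of 0.114.

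The order of the members by mean level was much alike in the genotypes. In WT the order was Slc6a19, Slc43a2, Slc15a1, Slc7a8, Slc3a2, Slc7a7, Slc6a20a, Slc7a9, Slc3a1 and Slc1a5. Each of the 4 most abundant overlapped its neighbour in this order, as did those from Slc7a7 to Slc3a1, while Slc3a2 stood apart from the members on either side of it. In Rank-knockout, Slc7a8 came before Slc15a1 and Slc7a9 before Slc6a20a. In WT the range of Slc1a5 (26.6 to 36.0 CPM) lay below that of Slc3a1, whereas in Rank-knockout it overlapped those of Slc3a1 and Slc6a20a. The 10 members together took 0.473% to 0.692% of all counts in WT, against 0.286% to 0.350% in Rank-knockout.

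The promoters of the heavy chains Slc3a1 and Slc3a2 are shown because these genes pair with the light chains of opposite membranes and fell by 0.98 and by 0.84 on the log2 scale. Each sequence is the 250 bases before the RefSeq start (GRCm38.p6), read 5′ to 3′ on the gene's strand, at chr17:85028097-85028346 on the plus strand for Slc3a1 and chr19:8713898-8714147 on the minus strand for Slc3a2. The Slc3a2 window lies within the bounds of the gene given above, so its start is not the outermost one. Capitals mark matches to 6 motifs searched on both strands.
Slc3a1: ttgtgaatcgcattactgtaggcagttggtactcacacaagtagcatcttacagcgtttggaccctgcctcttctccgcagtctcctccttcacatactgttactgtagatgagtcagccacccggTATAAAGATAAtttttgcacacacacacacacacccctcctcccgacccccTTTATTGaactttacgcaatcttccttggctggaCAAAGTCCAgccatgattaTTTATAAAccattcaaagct
Slc3a2: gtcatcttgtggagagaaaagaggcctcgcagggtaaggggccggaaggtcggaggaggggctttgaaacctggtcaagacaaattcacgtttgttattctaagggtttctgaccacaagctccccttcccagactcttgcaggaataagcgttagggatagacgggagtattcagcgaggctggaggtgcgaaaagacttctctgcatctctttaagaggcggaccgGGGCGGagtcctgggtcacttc

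The motifs were CAAAGTNCA for HNF4, TTTATNG for CDX, AGATAA for GATA factors, TATAAA for the TATA box, GGGCGG for the GC box and TGATGNAA for ATF4, where N is any base. HNF4, CDX and GATA factors are transcription factors of the intestinal epithelium. The Slc3a1 window held the HNF4 letters 39 to 31 bases before the start, the CDX letters 73 to 67 bases before it, and the GATA letters 119 to 114 bases before it, which share 1 base with a TATA match. It also held a pair of overlapping TATA matches on opposite strands between 20 and 13 bases before the start. The Slc3a2 window held a single GC box, 22 to 17 bases before the start.

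RefSeq windows were at hand for 9 of the members, several of them with more than 1 start, and not for Slc1a5. The HNF4 letters were in 1.19% and the CDX letters in 9.81% of 32851 windows of this length, and among the members both were found in Slc3a1 alone. The GATA letters were in 9.99% of all windows and in at least 1 window each of Slc3a1, Slc7a9 and Slc7a7. The GC box was in 32.7% of all windows and in at least 1 window of 5 members, namely Slc6a20a, Slc3a2, Slc7a7, Slc7a8 and Slc43a2. The ATF4 letters were in 3.45% of all windows and in some windows of Slc7a7 but not in others. The TATA letters were in 12.4% of all windows and in that of Slc3a1. A member was counted if any of its windows matched, so these counts and the shares of all windows are unlike measures. These are letter matches, not measured binding.

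Within-library ratios of tags do not depend on scaling, and several were set out after values were seen. They are described without a test. The light chains that pair with Slc3a2 were summed over Slc7a5, Slc7a6, Slc7a7, Slc7a8, Slc7a10 and Slc7a11. Slc7a8 made up most of these tags in every library, 74.9% to 83.3% in WT and 58.9% to 76.9% in Rank-knockout, and these ranges overlapped. Slc7a7 made up 14.3% to 21.7% in WT and 15.4% to 18.3% in Rank-knockout.

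Slc7a5, a light chain of growing and dividing cells that imports large neutral amino acids, made up 4.34%, 3.34%, 2.39% and 2.36% of light chain tags in WT replicates 1 to 4. In Rank-knockout replicates 1 to 4 it made up 22.3%, 12.7%, 10.3% and 7.34%. All Rank-knockout libraries were above all WT libraries. The closest libraries were WT replicate 1, with a 95% Wilson interval from 3.42% to 5.49%, and Rank-knockout replicate 4, with an interval from 6.52% to 8.25%. These intervals cover counting error only. There were 18.6 to 35.3 Slc7a8 tags per Slc7a5 tag in WT and 2.64 to 10.5 in Rank-knockout. The number of Slc3a2 tags per light chain tag overlapped between the genotypes, at 0.341 ± 0.107 in WT against 0.274 ± 0.0288 in Rank-knockout (SD, n = 4 each). Most of the WT spread came from replicate 2 at 0.501, where the other WT libraries lay between 0.277 and 0.300.

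**Figure D2:**
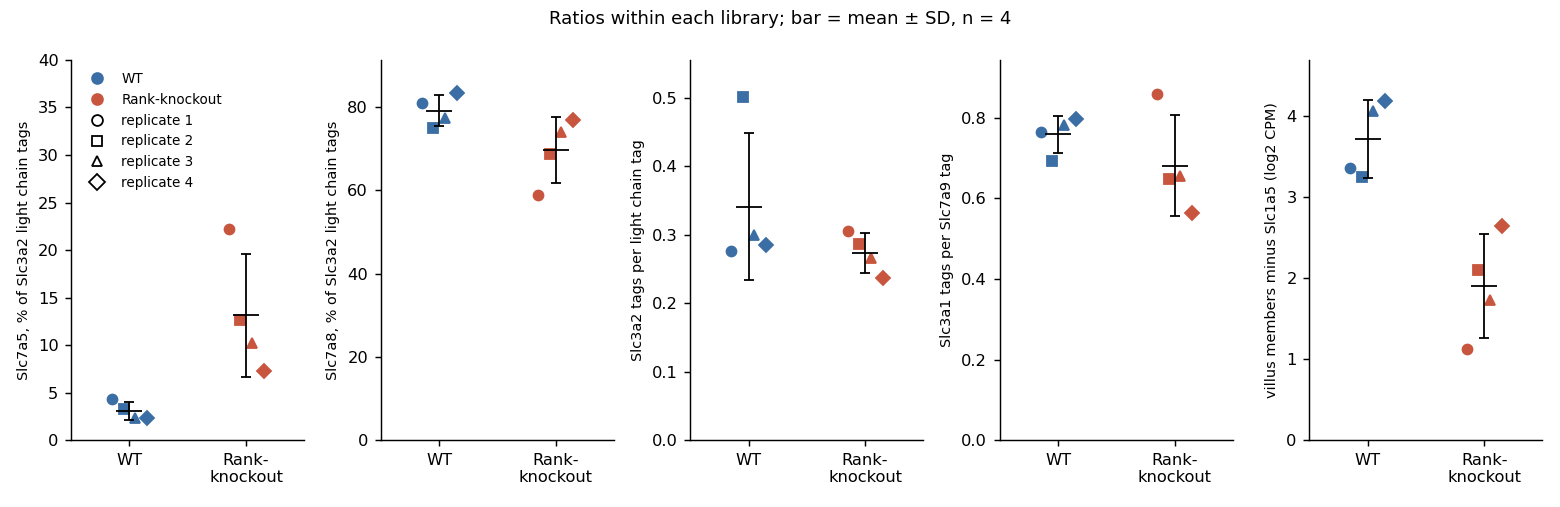
Within-library measures in each library: the percent of Slc3a2 light chain tags that were Slc7a5 or Slc7a8, the tags of Slc3a2 per light chain tag and of Slc3a1 per Slc7a9 tag, and the mean log2 CPM of the 8 villus members minus that of Slc1a5. Bars give the mean and SD of 4 libraries. The Slc7a5 share and the villus minus Slc1a5 difference do not overlap between the genotypes, and the other measures do.

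The contrast between villus transporters and Slc1a5 was drawn in each library. It is the log2 CPM averaged over 8 members (the apical ones with Slc7a7, Slc7a8 and Slc43a2) less the log2 CPM of Slc1a5. It was 3.36, 3.25, 4.06 and 4.19 in WT and 1.13, 2.11, 1.73 and 2.65 in Rank-knockout. Every WT library was above every Rank-knockout library, and the means differed by -1.81 on the log2 scale. There were 44.6 to 87.3 Slc6a19 tags for each Slc1a5 tag in WT and 10.7 to 19.5 in Rank-knockout. This contrast was described and not tested.

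Of 37 further amino acid transporters, 15 had enough counts to be tested. Of these 6 (40%) were higher, against 15.8% of all tested genes, and 2 (13.3%) were lower, against 14.6%. With library totals in place of TMM scaling the counts were again 6 and 2, against 26.1% higher and 8.7% lower of all tested genes. The 22 others had at most 101 counts each over all 8 libraries, and 6 of those had none. The median log2 fold change of the 15 was -0.20. All 4 tested transporters that supply growing cells were higher. Of 169 tested genes with other Slc symbols, none of them in these lists of amino acid transporters, 6 were higher and 62 (36.7%) lower, with a median of -0.38.

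Slc7a5 had the largest rise among the tested transporters of these lists. It stood at 44.5, 23.8, 26.0 and 30.6 CPM in WT and 115, 82.6, 71.0 and 67.5 CPM in Rank-knockout, with no overlap. The log2 fold change was 1.46 (SE 0.22 and edgeR adjusted p of 4.0e-04). Slc7a5 and Slc1a5 are often named together as suppliers of dividing cells. Both were highest in Rank-knockout replicate 1 and lowest among the knockouts in replicate 4, whereas WT replicate 2 had the lowest WT level of Slc7a5 and the highest WT level of Slc1a5.

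Among the others, Slc7a1, a carrier of cationic amino acids found in most growing cells, stood at 43.6 to 63.7 CPM in WT, against 76.0 to 128 CPM in Rank-knockout, with a log2 fold change of 0.92 (SE 0.19 and edgeR adjusted p of 2.1e-03). Slc38a1, which imports glutamine with sodium, rose from 33.2 ± 6.30 to 65.0 ± 15.8 CPM (SD, n = 4 each), a log2 fold change of 0.98. Its relative Slc38a2 rose by a log2 fold change of 0.47 (edgeR adjusted p = 0.036), a call that was lost without any one of WT replicates 1, 3 and 4 or Rank-knockout replicates 1 and 2. None of these overlapped between the genotypes.

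Transporters of the apical membrane outside the 10 members did not share 1 direction. Slc36a1, which takes up small neutral amino acids with protons, stood at 338, 327, 514 and 576 CPM in WT, against 203 to 229 CPM in Rank-knockout, a log2 fold change of -1.01 (SE 0.18 and edgeR adjusted p of 9.3e-04). Slc1a1, the carrier of glutamate and aspartate, was higher, at 20.6 to 32.4 CPM in WT and 39.4 to 51.4 CPM in Rank-knockout. Its log2 fold change was 0.75 (SE 0.19 and edgeR adjusted p of 6.9e-03), and without WT replicate 4 and Rank-knockout replicate 1 together it was 0.65 with an adjusted p of 0.062. The taurine carrier Slc6a6 had 157 to 329 CPM in WT, against 176 to 353 CPM in Rank-knockout and did not pass (log2 fold change -0.20, edgeR adjusted p = 0.610). At the basolateral membrane, Slc16a10, which releases aromatic amino acids, had 222 to 389 CPM in WT, against 130 to 178 CPM in Rank-knockout, a log2 fold change of -1.12 (SE 0.17 and edgeR adjusted p of 4.2e-04).

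Of the 4 tested transporters listed here for the lysosome, 1 passed. Slc15a4, which moves histidine and small peptides out of lysosomes, had 41.8 to 46.1 CPM in WT and 55.3 to 63.5 CPM in Rank-knockout. It passed narrowly, with a log2 fold change of 0.42 (edgeR adjusted p = 0.040), and the call was lost in every fit that left out a library and, with all libraries kept, under DESeq2 (adjusted p = 0.058), after thinning (adjusted p = 0.074) and without a filter (adjusted p = 0.086). In the fits where it was lost the log2 fold change was 0.36 to 0.45. The arginine sensor Slc38a9 (log2 fold change -0.40, adjusted p = 0.192) and the cystine exporter Ctns (-0.36, adjusted p = 0.148) did not pass, nor did Slc38a10 of another list (-0.24, adjusted p = 0.186).

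**Figure D3:**
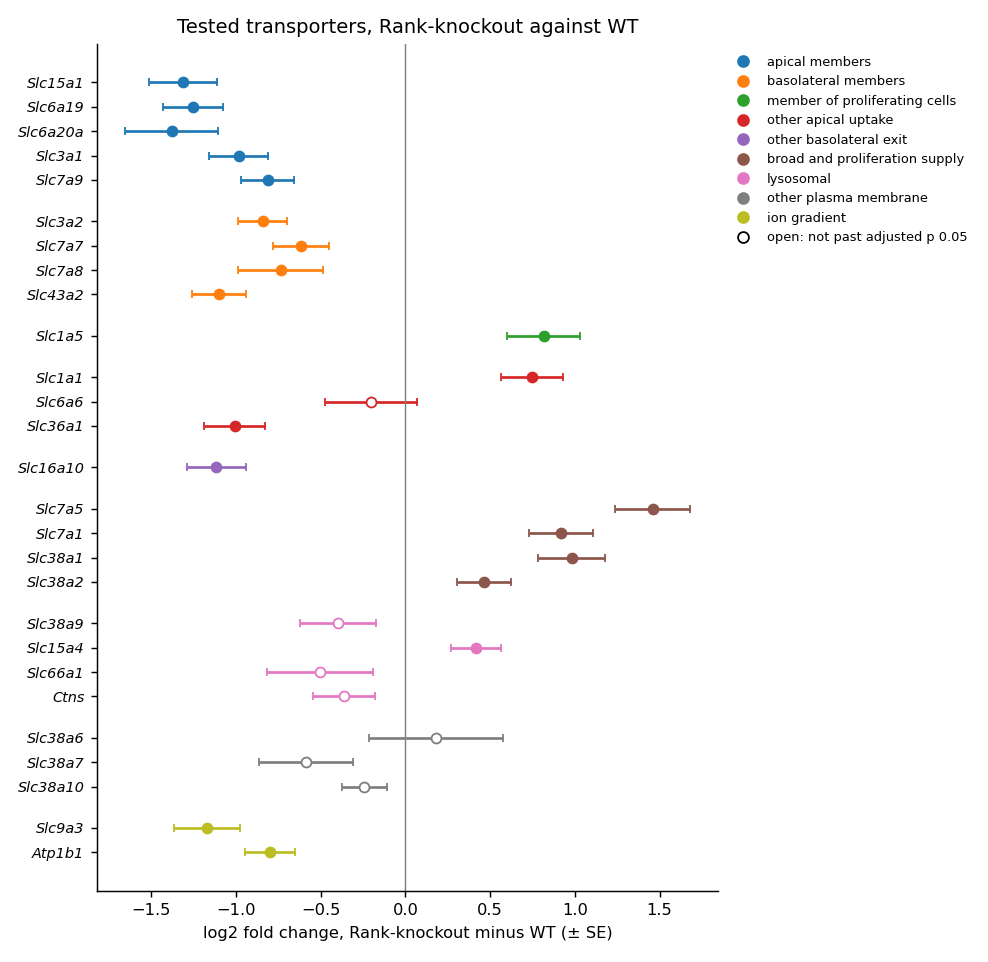
Log2 fold change with its SE for the 10 members, the 15 further amino acid transporters that were tested, and Slc9a3 and Atp1b1, coloured by list. Filled points passed an edgeR adjusted p of 0.05. The apical and basolateral members lie between -1.38 and -0.62, and Slc1a5 and the 4 transporters that supply growing cells lie between 0.47 and 1.46.

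Genes that keep up the ion gradients used by the members were examined as well. Slc9a3, the brush border sodium-proton exchanger, keeps up the proton gradient that PEPT1 uses. It fell from 54.0 ± 6.54 to 23.8 ± 5.82 CPM (SD, n = 4 each), a log2 fold change of -1.17 (SE 0.19 and edgeR adjusted p of 6.2e-04). Atp1b1, a subunit of the sodium pump, fell from 4347 ± 461 to 2497 ± 250 CPM (SD, n = 4 each), a log2 fold change of -0.80 (SE 0.15 and edgeR adjusted p of 1.2e-03). Neither overlapped between the genotypes.

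Lists of cell type markers did not share 1 direction. Of all tested genes, 14.6% were called lower and 15.8% higher. All 10 markers of villus enterocytes were lower, with a summed level of 21610 to 25760 CPM in WT, against 9733 to 13300 CPM in Rank-knockout. All 12 replication and cell cycle genes were higher, with a sum of 501 to 799 CPM in WT, against 1341 to 2062 CPM in Rank-knockout. Of 6 stem and progenitor markers 4 were higher and none lower, with a sum of 316 to 470 CPM in WT, against 480 to 1056 CPM in Rank-knockout. Of 6 Paneth cell markers 3 were higher (2091 to 4464 CPM against 2896 to 9329 CPM), and of 6 goblet cell markers 4 were lower and 1 higher. Of 6 pan-epithelial markers Krt18 and Krt19 were higher and Epcam was lower. None of the 6 enteroendocrine and of the 2 tested tuft cell markers passed. None of the 6 tested markers of T and other immune cells passed (182 to 279 CPM against 122 to 197 CPM). Of the plasma and B cell markers Igha alone was tested and did not pass (log2 fold change -1.49, edgeR adjusted p = 0.066), and the list of 5 summed to 29.4 to 95.2 CPM in WT, against 6.30 to 40.9 CPM in Rank-knockout. The 8 stromal and muscle markers summed to at most 19.9 CPM. Of 5 tested markers of the proximal small intestine, Lct (log2 fold change -1.35) and Adh6a (-0.87) were lower and none was higher, and the list of 6 summed to 4304 to 7801 CPM in WT, against 2405 to 4624 CPM in Rank-knockout. The ileal markers Fabp6, Slc10a2 and Fgf15 were near 0 and were not tested. Their sum was 1.33 to 2.28 CPM in WT and 3.38 to 9.98 CPM in Rank-knockout, a difference carried by Fabp6 (mean 1.25 CPM in WT, against 5.68 CPM in Rank-knockout), while Slc10a2 had 0.680 and 0.615 CPM and Fgf15 had no count. The part of these cell types and of the region of intestine in the members' levels was not tested.

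Libraries also differed within a genotype. WT replicate 4 was the highest WT library for 6 of the 9 villus membrane transporters, the lowest for Slc1a5, and the lowest of all libraries in the cell cycle sum (501 CPM). Rank-knockout replicate 1 was the lowest Rank-knockout library for 6 of the 9, the highest for Slc1a5, and the highest of all in the cell cycle sum (2062 CPM). It was, however, the highest Rank-knockout library for Slc6a19 and Slc3a1. Without both of these libraries 7 members were called lower and none higher, and of all genes tested in that fit 8.21% were lower and 6.78% higher.

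Levels were also expressed per tag of Vil1, which encodes villin of the brush border and itself fell (log2 fold change -0.80, edgeR adjusted p = 2.5e-03). This measure was chosen after values were seen and is given without a test. Per Vil1 tag, 3 of 10 members did not overlap between the genotypes, against 50.6% of the other tested genes, so the count is no result about the members. Slc15a1 had 1.01 to 1.58 tags per Vil1 tag in WT and 0.792 to 0.947 in Rank-knockout, and Slc43a2 had 1.58 to 1.94 in WT and 1.42 to 1.53 in Rank-knockout. Slc1a5 had 0.0297 to 0.0578 in WT and 0.0733 to 0.220 in Rank-knockout.

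The other members overlapped on this measure. The log2 ratio of the mean levels was -0.64 for Slc6a20a and -0.40 for Slc6a19, below the WT mean in 4 and in 3 of the Rank-knockout libraries. For Slc3a1, Slc7a9, Slc3a2, Slc7a8 and Slc7a7 it lay between -0.15 and 0.18.

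**Figure D4:**
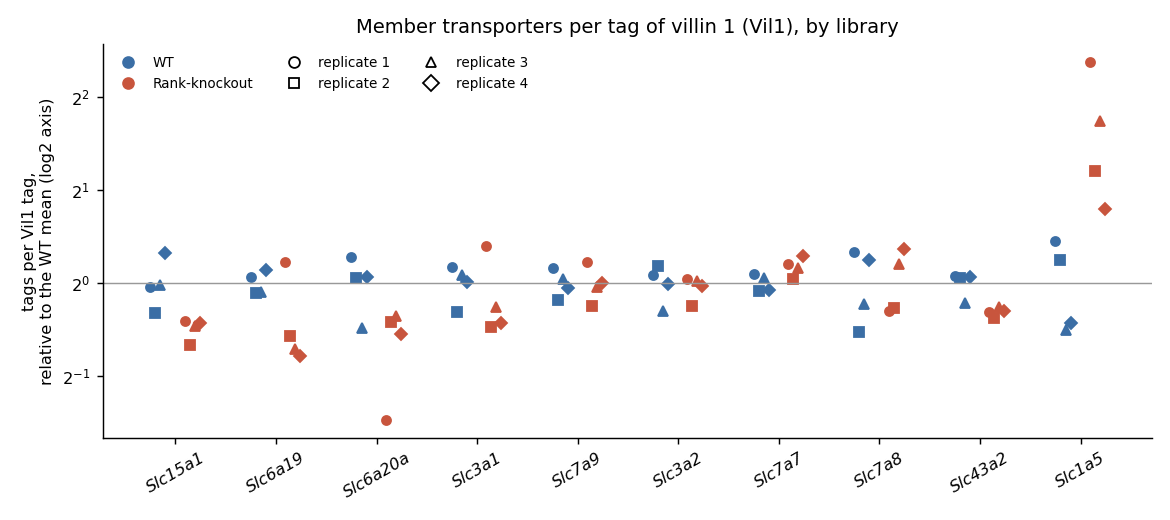
Tags of each member per Vil1 tag in each library, divided by the WT mean and drawn on a log2 axis, with WT in blue and Rank-knockout in red. Slc15a1 and Slc43a2 (lower) and Slc1a5 (higher) do not overlap between the genotypes, and the other members overlap.

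**Figure D5:**
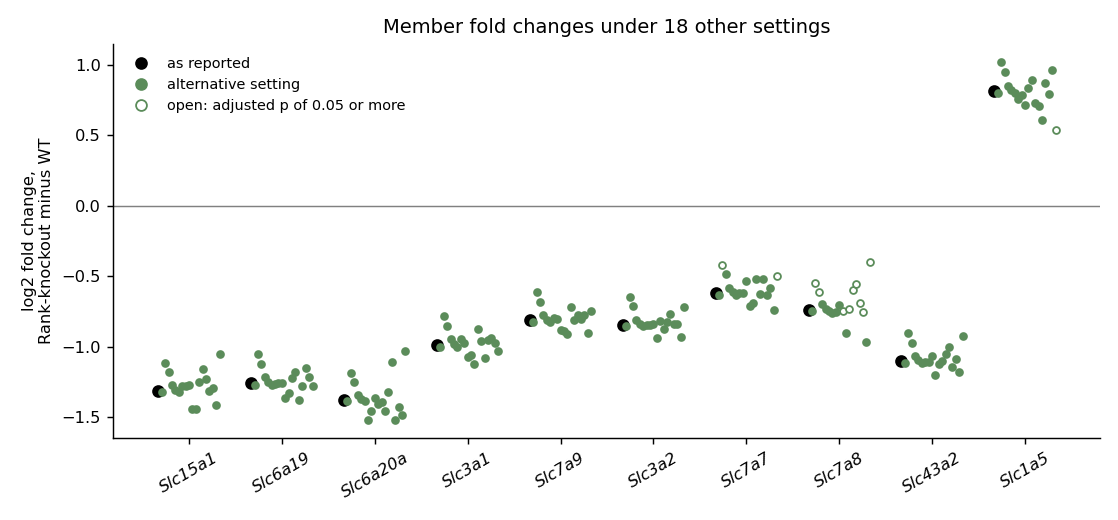
Log2 fold change of each member as reported (black) and under 18 alternative settings (green), with open points where the adjusted p was 0.05 or more. No member changed its direction, and open points occur for Slc7a8 (9 settings), Slc7a7 (2 settings) and Slc1a5 (1 setting).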

How the data were processed

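Gene expression was measured by 3′ mRNA sequencing (QuantSeq, single reads) in 8 libraries, 4 per genotype, grouped by their labels. Per the study's methods, intestinal tissue was minced, dissociated and strained. Reads were trimmed with BBDuk, those matching ribosomal, mitochondrial, phiX and adapter sequence were removed with bowtie2, and the rest were aligned to GRCm38 (mm10) with STAR and assigned to genes on the sense strand by featureCounts. The deposited values are the authors' raw counts per gene, with no normalization, which they tested with DESeq2. The methods name no molecular identifiers, and PCR copies may thus be counted. Intervals cover counting error only.

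Gene symbols and positions came from GENCODE M21, in which 54495 of 54532 identifiers were found, and no member shared exons with another gene on its strand. Counts were filtered with filterByExpr, scaled by TMM and tested with the quasi-likelihood F-test of edgeR 4.0.16 (R 4.3.3, robust fit, with a genotype term and no other). Benjamini-Hochberg adjustment was made across every tested gene, and calls needed an adjusted p under 0.05. Alternatives were DESeq2 1.42.0 and limma-voom (limma 3.58.1) in place of edgeR, scaling by RLE, by library totals or after setting aside the 50 most abundant genes, no filter or a minimum mean of 5 CPM, a block for the replicate number, thinning of every library to 1530781 counts, and each library left out in turn. Log2 CPM for the difference from Slc1a5 had a prior count of 2.

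The members and lists were chosen with earlier results of these data known. All 10 members are named. Of the other transporter lists, genes past the threshold and those tested with a mean of at least 20 CPM are named, except a few that are not reported here. Marker lists are given as counts and sums, and the markers named among them were chosen after their values were seen. The labels number the libraries of a genotype without further detail on the animals, so p-values measure the spread between these 8 samples.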

Additional observations from a re-analysis of the deposited data

Results flagged for a closer look

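In a group of 4 libraries, a value was singled out when its gap to the nearest other library was large against the range of the group (Dixon's test at 95%). Of 74 sets of 4 libraries examined, 4 gave such a value, and chance alone would give about 3.7. Slc6a6 stood at 353 CPM in Rank-knockout replicate 4, where the other Rank-knockout libraries had 176, 191 and 183 CPM. Ctns stood at 37.6 CPM in Rank-knockout replicate 1, below the 64.9 to 68.3 CPM of the others. Slc66a1 stood at 14.3 CPM in WT replicate 3, above the 7.32 to 7.86 CPM of the other WT libraries. The number of Slc3a2 tags per light chain tag was 0.501 in WT replicate 2. None of these was a level of a member.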

How the results depend on the processing

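Of the 10 members, 7 kept their direction and their call in all 18 alternative settings, and none changed direction. Slc7a8 lost its call in 9 settings: library totals (log2 fold change -0.54, adjusted p = 0.108), library sizes without the 50 most abundant genes (-0.61, adjusted p = 0.081), 6 fits without a single library, and the fit without WT replicate 4 and Rank-knockout replicate 1 (-0.40). Slc7a7 lost it under library totals and in that last fit (-0.50). The fit without both libraries was added after values were seen, and it also has fewer samples. In it 668 genes were higher and 809 lower, 0 members and 3 further transporters were higher, and Slc6a6 turned to 0.0096. Library totals gave 2575 genes higher and 857 lower, and moved the median of all genes by 0.202, so that 75% of calls were higher against 52.0%. Leaving out the 50 most abundant genes moved it by 0.132 and gave 68.3%. With a single library left out, genes higher ran from 1020 (without WT replicate 4) to 1723, genes lower from 1097 to 1564, and further transporters higher from 4 to 5. The Slc7a7 share of light chain tags, which differed by -0.914 percentage points, turned to 0.417 without WT replicate 2 (down to -2.05 without WT replicate 4). With the replicate block, 1708 genes were higher and 1602 lower, and 9 members were lower and 1 higher. The labels do not pair the replicate numbers, and the correlations of deviations (0.0517, 0.153, -0.139 and 0.323) did not all pass 0.1. The cause of these shifts was not tested. Of the further transporters, 22 had too few counts to be tested.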
